A study of Saccharomyces cerevisiae with 8 samples.

Results

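The response described here is that of control cells of Saccharomyces cerevisiae, budding yeast, to growth in hydrogen peroxide (H2O2), measured across all genes. It rests on the 4 samples of 8 in the series whose titles name control cells, 2 from cultures with 4 mM H2O2 and 2 from cultures without it. All 4 came from the laboratory strain CENPK.2-1C, were grown in YPD, a rich glucose medium, and were collected in exponential phase at an OD600 of 1.0. The labels do not say what distinguishes control cells beyond that name, nor how long the cells had been in H2O2. The series design calls the 2 samples of each group biological replicates. Total RNA was labelled with Cy3 and hybridised to 1-colour Agilent arrays. On the slide the 2 arrays with H2O2 lie in 1 row and the 2 without it in another, so row and H2O2 cannot be told apart.

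H2O2 oxidises the thiols of proteins and attacks iron centres. Yeast removes it with catalases, peroxiredoxins and glutathione peroxidases, many of them under the transcription factors Yap1 and Skn7, and a broader stress programme of chaperones, trehalose and glycogen enzymes answers to Msn2 and Msn4. In the textbook picture of a sudden stress, the stress programme is switched on while the genes that build ribosomes are turned down, and both shift back as cells adapt. The samples here are of cells growing in H2O2, and no other time in H2O2 was analysed here.

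Levels below are in scaled units, meaning the background-subtracted spot signal after each array's 75th percentile was set to 10000. A log2 change is with minus without H2O2, ± its standard error, and each p is two-sided, from limma and adjusted by Benjamini-Hochberg over all 5865 genes tested. The same fit was also made on a scale set by the E1A spike-ins, RNA that is added in known amount during labelling, and there every gene's log2 change is lower by 0.54. Changes on that scale are relative to the RNA that was labelled, and RNA per cell was not measured. Levels of different probes are not compared. With 2 arrays a group, the number of arrays limits the precision of every value, and p-values measure only the spread between these samples.

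SUA7 encodes the general transcription factor TFIIB, named in the genotype of the series' mutant cells, which are not analysed here. In the control cells it read 19974 and 15982 units without H2O2 and 15012 and 21499 units with it. Its groups overlapped and its log2 change was 0.01 ± 0.23 (adjusted p = 0.979), with a sign that flips between settings. The strain name is used for a MATa haploid, and all 6 a-specific genes were well above background on all 4 arrays, at 1067 to 40902 raw units. Of the 4 alpha-specific genes, SAG1 (926 to 1639 raw units) and STE3 (188 to 650.2 raw units) were well above background on all 4 arrays too, and MF(ALPHA)1 and MF(ALPHA)2, at 36.0 to 66.0 raw units, on 3 of the 4. The share of probes called well above background ran from 94.7% to 97.2%. The arrays without H2O2 had a 75th percentile of 15424 and 15403 raw units and those with H2O2 one of 9185 and 12898, while the E1A probes averaged 3042 and 3329 units without and 2621 and 4085 with H2O2. The 2 arrays without H2O2 differed from each other by little more than the scatter of duplicate spots alone would give. Their variance was 1.26 times that expected of a mean of 2 spots, against 43.6 times for the 2 arrays with H2O2. Whether the 2 arrays without H2O2 hold separate cultures, as the design text has it, or 1 RNA hybridised again was not settled here, and in the latter case every p below would rest on 1 sample without H2O2.

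Most genes were called changed between cells grown with and without H2O2. On the 75th percentile scale 1851 of 5865 genes rose (31.6%) and 1575 fell (26.9%), taking an adjusted p under 0.05. On the spike-in scale 397 rose (6.77%) and 3395 fell (57.9%). All 397 also rose on the 75th percentile scale, and all 1575 genes that fell on that scale fell on the spike-in scale too. No gene was called in opposite directions. This nesting is largely built in, because every gene's log2 change is lower by 0.54 on the spike-ins. The scale decides the call of the others: 1454 genes rose on the 75th percentile scale and were not called on the spike-ins, 1820 fell on the spike-ins alone, and 619 were called on neither. The median gene changed by 0.02 on the first scale and by -0.52 on the second.

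These p-values lean on the close match of the arrays without H2O2. When those were averaged into 1 array, limma called 0 genes on either scale, with lowest adjusted p-values of 0.0860 and 0.0787, although 1213 rises and 976 falls on the 75th percentile scale, and 214 rises and 2376 falls on the spike-in scale, had an unadjusted p under 0.05. Leaving out either array without H2O2 also gave 0 calls by limma on both scales (1187 to 1226 rises and 961 to 1005 falls at an unadjusted p under 0.05 on the 75th percentile scale). A rule with no p therefore stands beside the calls below: a gene at least 2-fold higher, or lower, on each H2O2 array than on both others. It found 207 genes higher (3.53%) and 383 lower (6.53%) on the 75th percentile scale, and 35 higher (0.597%) and 867 lower (14.8%) on the spike-ins. These counts depend on the arrays too: with replicate 1 of the H2O2 arrays left out they were 356 and 738, and 75 and 1485 on the spike-ins, and in the authors' normalized values they were 112 and 226. Genes that met this rule and the adjusted p on both scales, 35 rises (0.597%) and 353 falls (6.02%), are called the strong rises and strong falls. The bar is unequal, because every log2 change is lower by 0.54 on the spike-ins. On the 75th percentile scale the smallest strong rise was 1.62 (SHQ1) and the smallest strong fall -1.04 (YML131W). At an equal bar on that scale the counts were the 207 and 383 above.

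**Figure D1:**
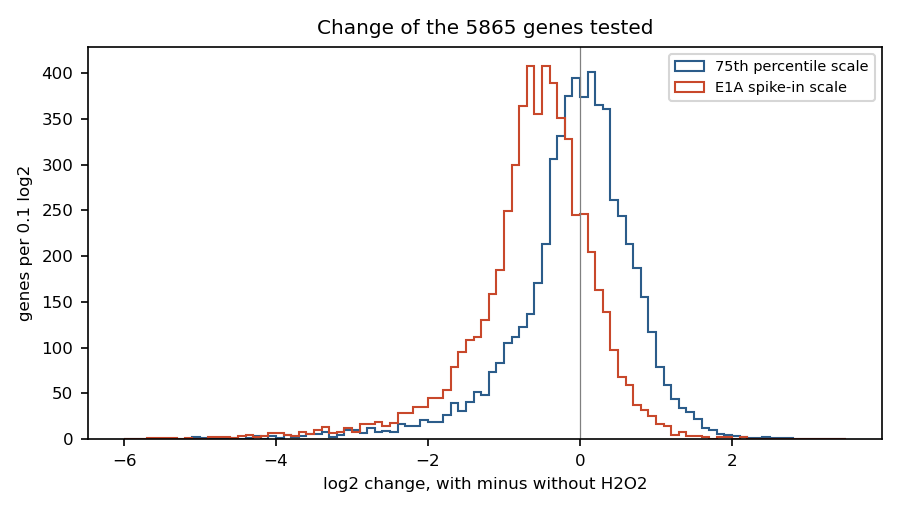
Count of genes (y axis, per 0.1 log2) by log2 change with minus without H2O2 (x axis) for the 5865 genes tested, on the 75th percentile scale and on the E1A spike-in scale. The curves have the same shape, with medians of 0.02 and -0.52, and both have a long tail of falls that the rises do not mirror.

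The falls reached much further than the rises. On the 75th percentile scale 524 called falls were at least 2-fold, 147 at least 4-fold and 44 at least 8-fold, whereas 309 called rises were at least 2-fold, 12 at least 4-fold and 0 at least 8-fold. Arrays with and without H2O2 did not overlap for 2620 higher genes (44.7%) and 2463 lower genes (42%) on that scale, so that alone sets few genes apart. The deepest called fall was 5.09 on the log2 scale and the largest called rise 2.73.

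The rises were led by genes that make ribosomes. RRN11 (YML043C, chromosome XIII at 190244 to 191767 of release R64-1-1), a subunit of the core factor that brings RNA polymerase I to the ribosomal RNA genes, read 384 and 442 units without H2O2 and 1845 and 4067 units with it. Both H2O2 arrays lay far above both others, and the level was 6.65-fold higher (2.73 ± 0.43, adjusted p = 0.0134). RPA12, a subunit of RNA polymerase I itself, read 2031 and 2222 units without and 7538 and 12358 units with H2O2 (2.18 ± 0.27, adjusted p = 0.00864). BFR2 and UTP18, both parts of the processome that cuts the small-subunit ribosomal RNA, were 5.70-fold and 4.38-fold higher. BFR2 read 1432 and 1619 units without and 7234 and 10427 units with H2O2 (2.51 ± 0.21, adjusted p = 0.00559), and UTP18 read 2015 and 2330.1 units without and 8572 and 10524 units with H2O2 (2.13 ± 0.14, adjusted p = 0.00541). REI1 and SSF1 act in building the large subunit. REI1 read 7253 and 7300.2 units without and 26541 and 34488 units with H2O2 (2.06 ± 0.15), SSF1 5915 and 6609 units without and 23169.9 and 28943 units with H2O2 (2.05 ± 0.14), and adjusted p was 0.00541 for both. In each of these 6 genes the lowest array with H2O2 was above the highest without it, which the rule for strong rises requires.

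The other 4 of the 10 largest named rises have no role in the ribosome lists. AQR1, a plasma membrane exporter, read 690.1 and 830.1 units without and 3055 and 5668 units with H2O2 (2.46 ± 0.35, adjusted p = 0.0110). VTS1, an RNA-binding protein that directs transcripts to decay, read 517 and 605 units without and 2048 and 4034 units with H2O2 (2.36 ± 0.37, adjusted p = 0.0135), and NRP1, also predicted to bind RNA, rose by 2.23 ± 0.12. BSC1 was dim without H2O2, at 66.8 and 54.7 units without and 608 and 241 units with H2O2, and is the 1 strong rise that was larger on replicate 1 (2.66 ± 0.51, adjusted p = 0.0196). The 35 strong rises held 15 members of the 4 ribosome assembly lists, among 167 tested, and 17 genes that are in none of the 58 lists. Among the latter, chosen after their values were seen, were TOD6 (2.01 ± 0.15), a repressor that binds upstream of ribosome assembly genes, FAL1, an RNA helicase (1.73 ± 0.13), and TRF5, a nuclear poly(A) polymerase (1.85 ± 0.20).

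**Figure D2:**
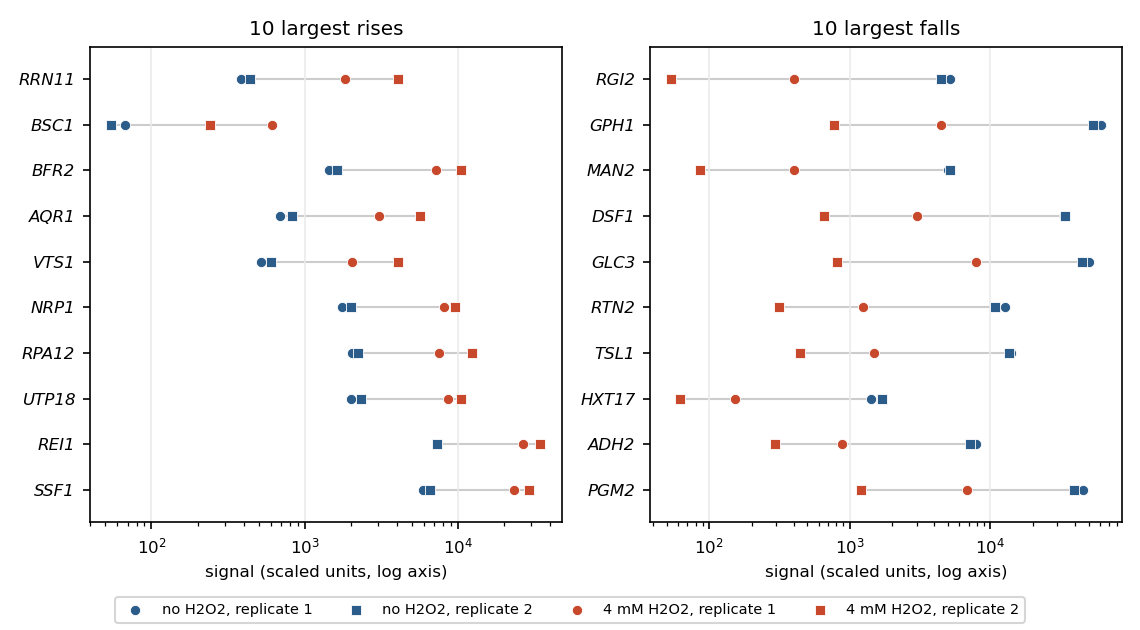
Signal of the 10 largest rises and 10 largest falls among strong changes with a standard name, on each of the 4 arrays (x axis, scaled units, log axis). Blue points are without and red points with 4 mM H2O2, circles replicate 1 and squares replicate 2. In all 20 genes the blue and red points do not overlap, which the rule for strong changes requires. The blue pair lies close together, and the red pair is spread widest among the falls.

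The falls were led by genes of reserve carbohydrate and of sugars and alcohols other than glucose. GPH1, the phosphorylase that breaks down glycogen (YPR160W, chromosome XVI at 861306 to 864014), read 60799.7 and 53385 units without H2O2 and 4442 and 777 units with it, a level 30.7-fold lower (-4.94 ± 0.93, adjusted p = 0.0192). GLC3, the glycogen branching enzyme, read 50013 and 45057 units without and 7891 and 809 units with H2O2 (-4.23 ± 1.21, adjusted p = 0.0492). PGM2, the main phosphoglucomutase, read 45344 and 39166 units without and 6806 and 1206 units with H2O2 (-3.88 ± 0.92, adjusted p = 0.0323). In all 3 both H2O2 arrays were far below the others, and replicate 2 was lower than replicate 1 by more, on the log scale, than the 2 arrays without H2O2 differed. TSL1, a regulatory subunit of trehalose synthase, read 13969 and 13515 units without and 1487 and 439 units with H2O2 (-4.09 ± 0.65, adjusted p = 0.0136). RGI2 (YIL057C, chromosome IX at 247902 to 248396), which is needed for energy metabolism under respiratory growth, had the deepest fall of any gene with a standard name, at 5152 and 4469 units without and 403 and 53.8 units with H2O2 (-5.03 ± 1.07, adjusted p = 0.0253). Its replicate 2 signal, 69.4 raw units, was close to the dimmest signal well above background on that array, 30.3 raw units.

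MAN2 and DSF1, a near-identical pair of mannitol dehydrogenase genes whose probes may share signal, read 5012 and 5165 units without and 404 and 86.5 units with H2O2 and 33259 and 33968 units without and 3003 and 658 units with H2O2 (log2 change -4.77 ± 0.82 and -4.58 ± 0.81, adjusted p = 0.0161 and 0.0169). HXT17, a hexose transporter gene that lies beside MAN2, fell by 4.00 ± 0.49 on the log2 scale (adjusted p = 0.00853), from 1409 and 1701 units without to 152 and 61.5 units with H2O2. ADH2, the alcohol dehydrogenase that consumes ethanol, read 7873 and 7213 units without and 874 and 296 units with H2O2 (-3.89 ± 0.58, adjusted p = 0.0121). RTN2, a reticulon of the endoplasmic reticulum, completed the 10, at 12614 and 10838 units without and 1241 and 313 units with H2O2 (-4.23 ± 0.74). HXT15 and HXT16, hexose transporters that are near-identical, and DAK2, a dihydroxyacetone kinase, were not tested because they were not well above background on every array. HXT15 read 1280.5 and 1031 raw units without and 54.7 and 27.3 with H2O2, HXT16 956 and 1038 against 54.2 and 38.7, and DAK2 1042 and 996 against 68.7 and 31.2. In these 3 genes too the groups did not overlap, as was so for 42% of the genes tested, in that direction on the 75th percentile scale. H2O2 replicate 2 was not well above background in any of the 3.

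None of the enzymes that destroy H2O2 passed the test as a rise in cells growing in it. Of the 5 catalase and superoxide dismutase genes, 3 fell and 1 rose on the 75th percentile scale, against 26.9% and 31.6% of all genes. CTT1 (YGR088W, chromosome VII at 654634 to 656322), the cytosolic catalase, read 17879 and 16299.6 units without H2O2 and 3355 and 792 units with it. Its level was 10.5-fold lower (-3.39 ± 0.77, adjusted p = 0.0290). CTA1, the peroxisomal catalase, read 3544 and 3450.5 units without and 1237 and 867 units with H2O2 (-1.76 ± 0.20, adjusted p = 0.00744), and SOD2, the mitochondrial superoxide dismutase, read 61635 and 58356 units without and 35591 and 29535 units with H2O2 (-0.89 ± 0.12, adjusted p = 0.00956). The 1 rise was CCS1, the copper chaperone of cytosolic superoxide dismutase, by 0.66 ± 0.06 (adjusted p = 0.00563), and it was not called on the spike-in scale. SOD1, the cytosolic dismutase itself, read 147478 and 143169 units without and 149674 and 152708 units with H2O2. Its change of 0.06 ± 0.06 was not called on the 75th percentile scale (adjusted p = 0.434). It turned to -0.27 and -0.81, both called, under quantile scaling and in the authors' normalized values. On the spike-in scale 4 of the 5 genes fell, SOD1 among them.

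Among the 10 peroxiredoxin and glutathione peroxidase genes, 4 fell on the 75th percentile scale, 0 rose, and all 10 fell on the spike-in scale. Of all genes tested, 26.9% fell on the 75th percentile scale and 57.9% on the spike-in scale. TSA1, the main cytosolic peroxiredoxin, read 120753 and 124128 units without and 124366 and 131306 units with H2O2 and was not called (0.06 ± 0.06, adjusted p = 0.440), and like SOD1 it was called lower under quantile scaling (-0.25) and in the authors' values (-0.66). Its paralogue TSA2 fell from 7273 and 6192 units without to 2447 and 1187 units with H2O2 (-1.98 ± 0.40, adjusted p = 0.0220). PRX1, the mitochondrial peroxiredoxin, fell from 25557 and 25112 units without to 8203 and 7030.2 units with H2O2 (-1.74 ± 0.10, adjusted p = 0.00541), and SRX1, the sulfiredoxin that repairs overoxidised peroxiredoxin, read 838 and 832 units without and 366 and 150.4 units with H2O2 (-1.83 ± 0.48, adjusted p = 0.0392). The peroxidases HYR1 (0.15 ± 0.07), GPX2 (0.01 ± 0.06) and AHP1 (-0.20 ± 0.10), and the mitochondrial cytochrome c peroxidase CCP1 (-0.36 ± 0.12), had adjusted p-values from 0.0703 to 0.932 on the 75th percentile scale.

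In the thioredoxin, glutaredoxin and glutathione list 11 of 19 genes fell and 2 rose on that scale, and 16 fell and 0 rose on the spike-in scale. On the latter 57.9% of all genes fell and 6.77% rose. ECM4, a glutathione transferase, fell most, at -2.39 ± 0.38 (adjusted p = 0.0135), and 1 of the 19 met the 2-fold rule. TRX2, the thioredoxin under Yap1, read 65328 and 63217 units without and 46652 and 48533 units with H2O2 (-0.43 ± 0.06, adjusted p = 0.0111). GLR1, the glutathione reductase, changed by -0.24 ± 0.06 (adjusted p = 0.0401), TRR1, the thioredoxin reductase, by -0.09 ± 0.06 (adjusted p = 0.233) and GSH1, which starts glutathione synthesis, by -0.28 ± 0.12 (adjusted p = 0.127). ZWF1, which makes NADPH for these systems, read 15517 and 14271 units without and 10064 and 9218 units with H2O2 and fell by 0.63 ± 0.08 (adjusted p = 0.01005). The glutaredoxin genes GRX8 (0.48 ± 0.13) and GRX3 (0.26 ± 0.06) rose on the 75th percentile scale alone.

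Of YAP1, SKN7, MSN2 and MSN4, the last changed most. YAP1 read 17882 and 19111 units without and 14883 and 16894 units with H2O2 and was not called on the 75th percentile scale (-0.22 ± 0.09, adjusted p = 0.116), while SKN7 read 2386 and 2447 units without and 3027 and 3536 units with H2O2 and rose on that scale (0.44 ± 0.10, adjusted p = 0.0294). Of 20 genes listed as Yap1 and Skn7 targets and partners, 9 fell and 3 rose, with a median of -0.31 against 0.02 for all genes. The shares of all genes were 26.9% and 31.6%. CIN5, a transcription factor of the Yap family, fell most (-2.52 ± 0.56, adjusted p = 0.0273), and the exporter gene ATR1, a known Yap1 target, rose most, from 2065 and 2219 units without to 3862 and 3967 units with H2O2 (0.87 ± 0.07, adjusted p = 0.00541). MSN2 read 5409 and 5354 units without and 6361 and 6152 units with H2O2 (0.22 ± 0.06, adjusted p = 0.0420) and MSN4 9824 and 10172 units without and 4864 and 2657 units with H2O2 (-1.48 ± 0.33, adjusted p = 0.0273), so the pair moved in opposite directions on the 75th percentile scale, with MSN2 not called on the spike-ins.

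**Figure D3:**
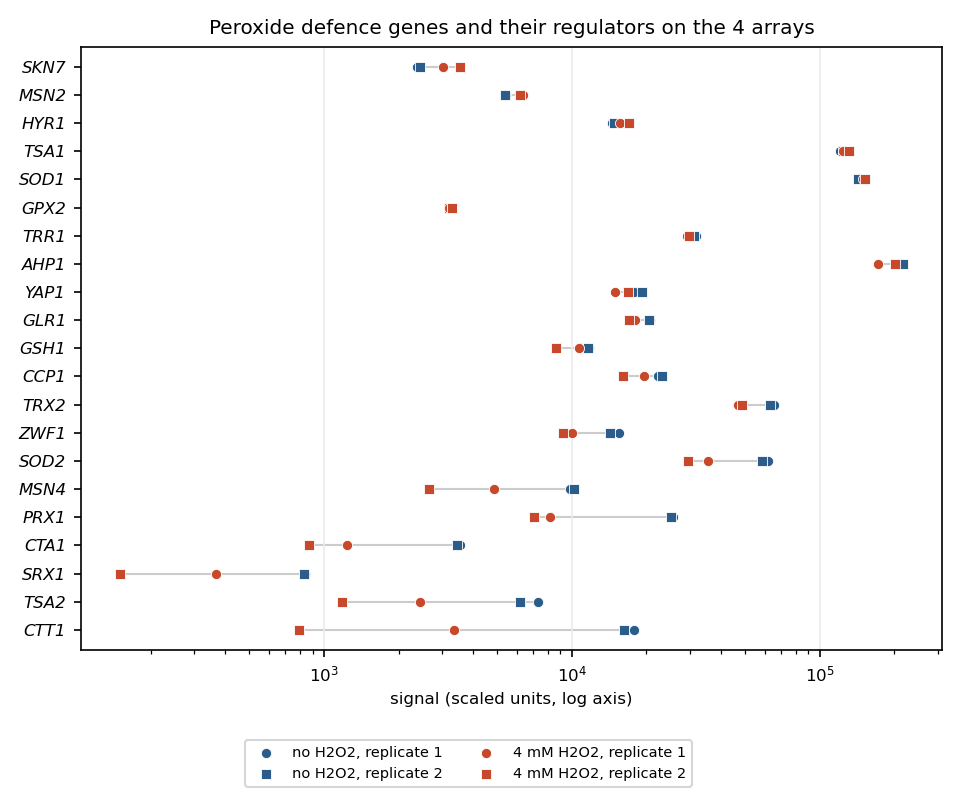
Signal of 21 peroxide defence genes and regulators on each of the 4 arrays (x axis, scaled units, log axis), ordered from the highest to the lowest log2 change. Blue points are without and red points with 4 mM H2O2. SKN7 and MSN2 are the 2 genes at the top whose red points lie to the right and that passed the test, points nearly coincide for GPX2, SOD1 and TSA1, and CTT1 at the bottom shows the deepest fall.

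The general stress genes lay well below their level without H2O2. Of 34 Msn2/Msn4 genes 24 fell, 1 rose (MSN2) and 23 met the 2-fold rule, with a median of -2.03 against 0.02 for all genes. HSP12, a membrane-stabilising small heat shock protein, read 48789 and 40882 units without and 5134 and 2953 units with H2O2 (-3.52 ± 0.31, adjusted p = 0.00580). MSC1 (-3.52 ± 0.80, adjusted p = 0.0292) and XBP1, a repressor induced by stress (-3.22 ± 0.49, adjusted p = 0.0128), fell by amounts close to that of HSP12. Of 24 cytosolic chaperone genes that answer to heat shock factor, 4 rose, 4 fell and 0 met the 2-fold rule. Both shares were below those of all genes, of which 31.6% rose and 26.9% fell. SSA3 rose from 1132 and 1180.3 units without to 2320.1 and 1924 units with H2O2 (0.87 ± 0.12, adjusted p = 0.00974) and the co-chaperone FES1 by 0.84 ± 0.14, while SSE2 (-1.12 ± 0.22) and SSA1 (-0.80 ± 0.09) fell. Of 33 proteasome genes 3 fell and 1 rose on the 75th percentile scale, shares far below those of all genes. On the spike-in scale 32 of the 33 fell, against 57.9% of all genes, with a median of -0.66 against -0.52. The falls on the 75th percentile scale included RPN4, the factor that drives proteasome genes (-0.43 ± 0.10).

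Reserve carbohydrate genes fell as broadly. In glycogen metabolism 15 of 19 genes fell (median -1.98) and in trehalose metabolism 6 of 7 (median -1.66), with 0 rises on either scale, and 16 of the 26 genes in the 2 lists met the 2-fold rule. Of all genes tested 26.9% fell and 31.6% rose on the 75th percentile scale, and 6.53% met the 2-fold rule as lower. Enzymes of synthesis and of breakdown fell together: GLG1, which primes glycogen, at -2.92 ± 0.75 (adjusted p = 0.0389), TPS2, the trehalose phosphate phosphatase, at -2.84 ± 0.72 (adjusted p = 0.0372), and the trehalases NTH1 and ATH1 at -1.70 ± 0.29 and -1.66 ± 0.10. In the vacuole 10 of 12 hydrolase genes fell, among them APE1, an aminopeptidase (-1.95 ± 0.17), and PRB1, a protease (-1.69 ± 0.41). Of 28 autophagy genes 17 fell and 4 rose. ATG39, the receptor for autophagy of the nuclear envelope, fell by 2.46 ± 0.18, and ATG8, the ubiquitin-like protein of the autophagosome, fell by 1.45 ± 0.40. ATG11, a scaffold of selective autophagy, rose by 0.83 ± 0.07 on the 75th percentile scale alone.

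Genes for carbon sources other than glucose fell. The counts below are on the 75th percentile scale, where 26.9% of all genes fell and 31.6% rose. In gluconeogenesis and the glyoxylate cycle 14 of 18 fell and 0 rose (median -2.01), with JEN1, the lactate carrier, at -3.48 ± 0.65 (adjusted p = 0.0192), and ICL1 and MLS1, the isocitrate lyase and malate synthase of the glyoxylate cycle, at -3.41 ± 0.57 (adjusted p = 0.0152) and -3.33 ± 0.48 (adjusted p = 0.0112). Among regulators, CAT8 and ADR1, which activate these genes when glucose runs out, read 9379 and 8660.3 units without and 1984 and 1323 units with H2O2 (-2.48 ± 0.23) and 8865 and 8019 units without and 1859 and 1772 units with H2O2 (-2.22 ± 0.08), with adjusted p-values of 0.00589 and 0.00541. SUC2, the invertase, fell by 2.66 ± 0.27, and 9 of 18 galactose and maltose genes fell. Of 16 hexose transporter and sensor genes 7 fell and 1 rose. HXT5 (-1.63 ± 0.31, adjusted p = 0.0195) and the galactose permease GAL2 (-1.72 ± 0.11, adjusted p = 0.00541) were among the falls, and STD1, a regulator of glucose sensing, was the rise (0.59 ± 0.06). Glycerol genes followed in part, with 6 of 10 lower, led by GUT2, the mitochondrial glycerol phosphate dehydrogenase (-3.31 ± 0.35, adjusted p = 0.00682).

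Transcripts of most respiratory enzymes fell. In the citric acid cycle 15 of 16 genes fell (median -0.97), and SDH1, of succinate dehydrogenase, read 49863 and 45241 units without and 16456 and 11772 units with H2O2 (-1.77 ± 0.19, adjusted p = 0.00711). In the respiratory chain and ATP synthase 36 of 43 fell and 0 rose on the 75th percentile scale (median -0.65), and all 43 fell on the spike-in scale. The shares of all genes that fell were 26.9% and 57.9%. CYC7, the minor form of cytochrome c, read 16578 and 15043 units without and 3297 and 552 units with H2O2 (-3.55 ± 0.95, adjusted p = 0.0423), and the alternative NADH dehydrogenases NDE2 and NDI1 fell, with log2 changes of -2.93 ± 0.32 and -1.70 ± 0.42. Mitochondrial ribosomal protein genes changed less on the 75th percentile scale, with 12 of 63 lower, a share below the 26.9% of all genes, and a median of -0.19. On the spike-in scale 57 of the 63 fell, a share above the 57.9% of all genes, with a median of -0.73 against -0.52. In fatty acid oxidation and peroxisomes 25 of 39 fell, with POT1 and POX1, of the peroxisomal beta-oxidation cycle, at -3.34 ± 0.53 and -3.07 ± 0.33, while PEX25, which acts in peroxisome division, rose on both scales (0.93 ± 0.09, adjusted p = 0.00645).

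Glycolysis itself was near flat with a rise in the main enzymes, and its direction depends on the scale. Of 23 genes of glycolysis and alcohol fermentation 8 rose and 5 fell on the 75th percentile scale (median 0.11), near the shares of all genes. On the spike-in scale 0 rose and 11 fell, against 6.77% and 57.9% of all genes. The median turned to -0.16 under quantile scaling and to -0.38 in the authors' values. ENO2, the main enolase, read 283108 and 279130.0 units without and 423902 and 383508 units with H2O2 (0.52 ± 0.08, adjusted p = 0.0119). ADH1, the alcohol dehydrogenase of fermentation, read 350542 and 341697 units without and 540528 and 436931 units with H2O2 (0.49 ± 0.13, adjusted p = 0.0388). FBA1, fructose-bisphosphate aldolase, changed by 0.48 ± 0.12 (adjusted p = 0.0325) and CDC19, pyruvate kinase, by 0.41 ± 0.12 (adjusted p = 0.0479), and both turned negative under quantile scaling (-0.0142 and -0.0765) and in the authors' values (-0.16 and -0.27). Other genes with the brightest probes had changes of like size on the 75th percentile scale, with TEF2, a translation elongation factor with a near-identical copy, at 0.47 ± 0.10 (adjusted p = 0.0238), RPS2 at 0.68 ± 0.13 (adjusted p = 0.0192), PDC1, pyruvate decarboxylase, at 0.47 ± 0.16 (adjusted p = 0.0732) and OLI1, a mitochondrially encoded subunit of ATP synthase, at 0.38 ± 0.15 (adjusted p = 0.103, and negative under the same 2 settings, -0.0767 and -0.33).

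Some pairs of paralogous enzymes and carriers are given side by side here. They were chosen after their values had been seen, the difference within a pair was not tested, and other pairs were not tallied. ADH1 and ADH2, above, are one pair. Of the transaldolases TAL1 changed by 0.04 ± 0.06 (adjusted p = 0.609) and NQM1 fell from 15579.9 and 13487 units without to 2753 and 1084 units with H2O2 (-3.07 ± 0.50, adjusted p = 0.0146). Of the transketolases TKL1 changed by 0.12 ± 0.06 (adjusted p = 0.143) and TKL2 by -2.29 ± 0.28 (adjusted p = 0.00818), and of the phosphogluconate dehydrogenases GND1 by -0.01 ± 0.06 (adjusted p = 0.862) and GND2 by -1.51 ± 0.11 (adjusted p = 0.00541). In these 3 pairs TAL1, TKL1 and GND1, the main forms on glucose, were not called on the 75th percentile scale, and their paralogues fell. On the spike-in scale, where every log2 change is lower by 0.54, 8 of the 11 pentose phosphate genes fell and 0 rose. Of the phosphoglucomutases, PGM1 was not called on that scale (0.11 ± 0.06, adjusted p = 0.166) and PGM2 fell (-3.88), and of the glycerol phosphatases GPP1 rose on that scale (0.46 ± 0.09) and GPP2 fell (-1.24 ± 0.15). Of the cytochromes c, CYC1 fell by 0.41 ± 0.10 and CYC7, as above, fell further (-3.55). The ADP/ATP carriers ran the other way: PET9, the main carrier, fell from 177343 and 187148 units without to 111305 and 112380.0 units with H2O2 (-0.70 ± 0.06, adjusted p = 0.00577), AAC1 fell by 0.53 ± 0.15, and AAC3, the carrier known from oxygen-poor growth, rose from 392 and 407 units without to 947 and 885 units with H2O2 (1.20 ± 0.07, adjusted p = 0.00541), on both scales.

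The machinery that makes ribosomes rose almost as a whole on the 75th percentile scale. Among all genes 31.6% rose on that scale, 6.77% rose on the spike-in scale and 3.53% met the 2-fold rule as higher. In the small-subunit processome and assembly list 55 of 56 genes rose, 38 of them on the spike-in scale as well, and 29 met the 2-fold rule (median 1.11, against 0.02 for all genes). In large-subunit assembly 72 of 74 rose, 46 of them on the spike-ins too, and 29 met the 2-fold rule (median 0.99). DBP8 and DHR2, helicases of small-subunit assembly, rose by 1.88 ± 0.13 and 1.80 ± 0.09, and RSA4 and MAK16, of large-subunit assembly, by 1.93 ± 0.17 and 1.75 ± 0.15. RNA polymerase I genes rose in 13 of 15 cases, including RRN3 (1345 and 1589 units without and 4693 and 6223 units with H2O2, 1.89 ± 0.18), the factor that makes the polymerase able to start. RNA polymerase III genes rose in 20 of 22. The 1 fall there was MAF1, the repressor of that polymerase (9935 and 9863 units without and 7469 and 5434 units with H2O2, -0.64 ± 0.18, adjusted p = 0.0465).

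The ribosomal proteins followed with smaller and more even changes. Of the large-subunit genes 76 of 80 rose and of the small-subunit genes 56 of 57, with medians of 0.74 and 0.73. On the spike-in scale 14 and 13 rose and 1 of each fell, with medians of 0.20 and 0.19 against -0.52 for all genes. Among all genes 31.6% rose on the 75th percentile scale, and 6.77% rose and 57.9% fell on the spike-in scale. RPP2B, of the ribosomal stalk, read 98262 and 100624 units without and 238581 and 243339 units with H2O2 (1.28 ± 0.06, adjusted p = 0.00541) and RPS29A read 100354 and 109028 units without and 228040.0 and 227192 units with H2O2 (1.12 ± 0.07, adjusted p = 0.00541). The largest rises were in RPS9A (1.48 ± 0.33) and RPL7B (1.42 ± 0.17), each of which has a near-identical second copy whose signal the probe may share. Translation factors rose in 26 of 36 cases and fell in 2, and cytosolic tRNA synthetases rose in 17 of 20, on the 75th percentile scale. On the spike-in scale 1 of the translation factors, GCD1, rose and 6 fell, and 0 synthetases were called.

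Regulators of this programme were examined after their values had been seen. TOD6 read 3438 and 3791 units without and 12895 and 16366 units with H2O2 and rose (2.01 ± 0.15, adjusted p = 0.00541), while its paralogue DOT6 read 18300.5 and 17708 units without and 10208 and 6768 units with H2O2 and fell (-1.11 ± 0.23, adjusted p = 0.0224); both encode repressors of ribosome assembly genes. STB3, which binds the other common element upstream of those genes, fell by 0.83 ± 0.16 (adjusted p = 0.0198). IFH1, the coactivator of ribosomal protein genes, rose from 1392 and 1579.7 units without to 3636 and 4657 units with H2O2 (1.47 ± 0.16, adjusted p = 0.00695), and its partner FHL1 rose by 0.76 ± 0.08 (adjusted p = 0.00693). SFP1 (-0.11 ± 0.07) and SCH9 (0.22 ± 0.08) were not called on the 75th percentile scale.

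Thiamine genes fell by much the same amount on both H2O2 arrays. Of 24 genes of thiamine and vitamin B6 synthesis 20 fell, 2 rose and 16 met the 2-fold rule (median -1.35). Among all genes 26.9% fell, 31.6% rose and 6.53% met the 2-fold rule as lower. PET18, a gene of this regulon, read 9305 and 9145 units without and 875 and 956 units with H2O2 (-3.33 ± 0.07, adjusted p = 0.00541). THI20 read 27097 and 26259 units without and 3258 and 2586 units with H2O2 (-3.20 ± 0.14), THI2, an activator of the regulon, read 3682 and 3746 units without and 483 and 432 units with H2O2 (-3.02 ± 0.08), and THI7, the plasma membrane thiamine carrier, read 60332 and 60674 units without and 10280.2 and 9426 units with H2O2 (-2.62 ± 0.07), each with an adjusted p of 0.00541. In these 4 genes the 2 H2O2 arrays lay close together. The groups did not overlap, as was so for 42% of all genes in that direction. PDC2, which activates thiamine and pyruvate decarboxylase genes, rose by 0.81 ± 0.07, and THI80, the thiamine pyrophosphokinase, by 0.54 ± 0.10, both on the 75th percentile scale alone.

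Nitrogen and amino acid genes moved in parts. Of 33 genes under nitrogen catabolite control 20 fell and 4 rose, against 26.9% and 31.6% of all genes. PUT4, the proline permease, read 3147 and 3288 units without and 475 and 376 units with H2O2 (-2.93 ± 0.14, adjusted p = 0.00541), GDH2, the NAD-dependent glutamate dehydrogenase, fell by 2.83 ± 0.20, and GAP1, the general amino acid permease, fell by 2.14 ± 0.07. In sulfur assimilation and methionine 15 of 31 fell and 9 rose, the latter near the share of all genes, with MUP3, a methionine permease, at -1.88 ± 0.39 and MET13, a methylenetetrahydrofolate reductase, at -1.62 ± 0.11. In purine and pyrimidine synthesis 13 of 29 rose and 4 fell, against 31.6% and 26.9% of all genes. Among the rises were URA7, CTP synthetase, at 1.27 ± 0.07 (adjusted p = 0.00541) and GUA1, GMP synthetase, at 1.05 ± 0.07 (adjusted p = 0.00541). Of the IMP dehydrogenase genes, chosen after their values were seen, IMD3 (0.70 ± 0.06) and IMD4 (0.81 ± 0.08) rose and IMD2 (-0.97 ± 0.24) fell, and as near-identical copies they may share signal.

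Genes of DNA and the cell cycle showed smaller changes. In replication and the G1/S step 13 of 37 rose, a share near the 31.6% of all genes, and 3 fell. YOX1, a repressor of early cell cycle genes, read 634 and 664 units without and 1605 and 3809 units with H2O2 (1.93 ± 0.46, adjusted p = 0.0328), and the S-phase cyclin CLB5 rose by 1.09 ± 0.17. The G1 cyclin CLN3 (-0.68 ± 0.08) and the S-phase inhibitor SIC1 (-0.57 ± 0.10) fell. RNR1, the large subunit of ribonucleotide reductase, read 5921 and 6499 units without and 14031 and 19495 units with H2O2 (1.41 ± 0.19, adjusted p = 0.00992), whereas RNR3, the form known as the DNA damage-induced one, read 1316 and 1317 units without and 859.7 and 738 units with H2O2 (-0.72 ± 0.10, adjusted p = 0.01004). Of 26 genes of DNA damage and nucleotide reduction 12 fell and 6 rose, against 26.9% and 31.6% of all genes. OGG1, which removes oxidised guanine from DNA, rose on both scales, from 2456 and 2575 units without to 4582 and 5733 units with H2O2 (1.03 ± 0.13, adjusted p = 0.00931), while NTG1, a glycosylase for oxidised pyrimidines, fell by 0.96 ± 0.10 and MAG1, a glycosylase for alkylated bases, fell by 1.38 ± 0.06. In mitosis and cytokinesis 14 of 27 rose and 4 fell, and 6 of 11 histone genes rose and 2 fell, beside the same shares of all genes.

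At the cell surface and in metal supply some single genes and 1 family had large changes. PIR3, a cell wall protein, read 13725 and 12927 units without and 1756 and 579.7 units with H2O2 (-3.72 ± 0.59, adjusted p = 0.0136), and DSE4, a glucanase that helps daughter cells separate, rose from 4664 and 4801 units without to 14569.9 and 18614 units with H2O2 (1.80 ± 0.14, adjusted p = 0.00541). Of 27 DAN, TIR and PAU mannoprotein genes 23 fell, against 26.9% of all genes, with TIR2 at -1.74 ± 0.17, and the PAU genes are near-identical in sequence, so their probes may count the same transcripts. In the iron regulon 8 of 26 rose and 5 fell, shares near or below those of all genes (31.6% and 26.9%): FRE1, a ferric reductase, rose by 1.03 ± 0.24 and HMX1, the haem oxygenase, fell by 1.66 ± 0.24. Of the phosphate genes PHO84, the high-affinity carrier, read 65098 and 66172 units without and 118924 and 127874 units with H2O2 (0.91 ± 0.07, adjusted p = 0.00541). CYB5, cytochrome b5, rose most among 27 ergosterol genes, of which 14 rose and 2 fell (3667 and 3692 units without and 9017 and 12157 units with H2O2, 1.51 ± 0.17, adjusted p = 0.00732).

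The general transcription machinery, to which SUA7 belongs, leaned upwards on the 75th percentile scale. Of 35 general factors of RNA polymerase II 19 rose and 3 fell (median 0.32), and on the spike-in scale 3 rose and 11 fell (median -0.23). For all genes the medians were 0.02 and -0.52. On the 75th percentile scale 31.6% of all genes rose and 26.9% fell, and on the spike-in scale 6.77% rose and 57.9% fell. MOT1, which strips the TATA-binding protein from DNA, was a strong rise, from 5671 and 5768 units without to 17850.2 and 18749 units with H2O2 (1.68 ± 0.06, adjusted p = 0.00541). TAF7 and TAF1, subunits of TFIID, rose by 0.94 ± 0.07 and 0.92 ± 0.12 on both scales. Among RNA polymerase II and Mediator genes 20 of 37 rose and 3 fell, led by RPB5 (1.11 ± 0.12) and RPO26 (0.94 ± 0.11), 2 subunits that RNA polymerases I and III share.

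**Figure D4:**
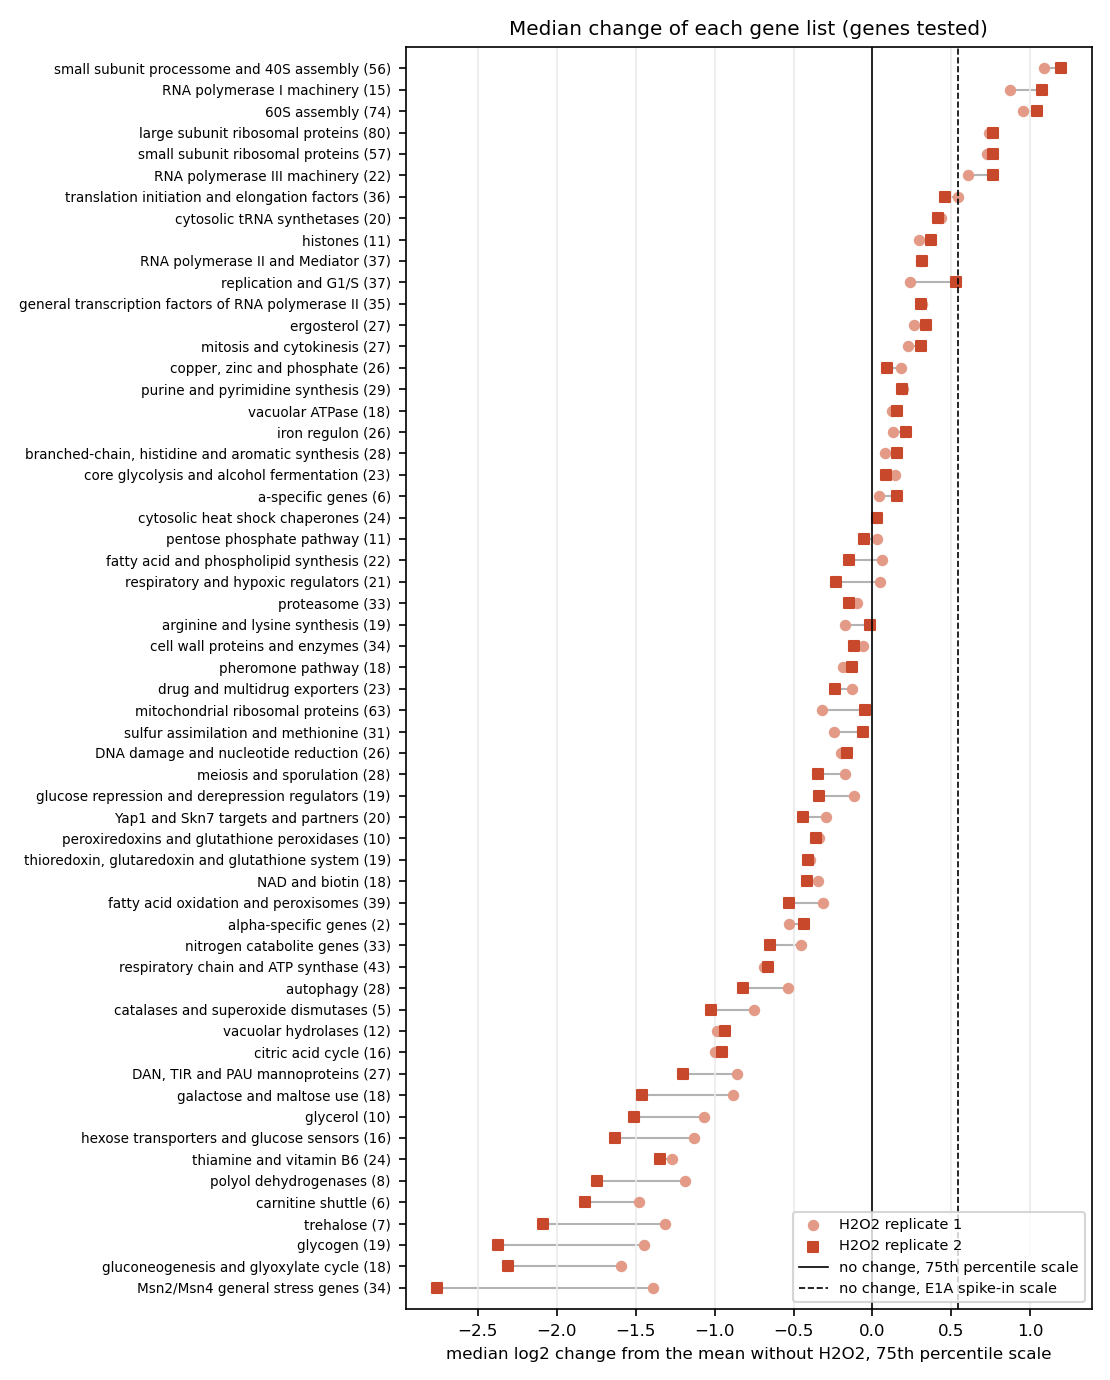
Median log2 change from the mean without H2O2 (x axis, 75th percentile scale) of each of 58 gene lists (y axis, number of genes tested in brackets) on H2O2 replicate 1 (circles) and replicate 2 (squares). The solid line marks no change on the 75th percentile scale and the dashed line no change on the spike-in scale. Ribosome assembly lists lie to the right of both lines on both arrays, and Msn2/Msn4, glycogen and gluconeogenesis lists lie far to the left, with replicate 2 beyond replicate 1.

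The 2 H2O2 arrays moved the same way to different degrees. The change had the same sign on both in 90.2% of the genes tested, and it was larger on replicate 2 in 70.9% of all genes, in 333 of the 353 strong falls (94.3%) and in 34 of the 35 strong rises (97.1%). The strong falls had a median of -1.49 on replicate 1 and -2.20 on replicate 2, and the strong rises 1.64 and 2.09. The lists differed in this respect. The Msn2/Msn4 genes had a median of -1.39 on replicate 1 and -2.76 on replicate 2, glycogen genes -1.45 and -2.37, and trehalose genes -1.31 and -2.09. Thiamine genes lay at -1.27 and -1.35, the citric acid cycle at -1.0002 and -0.95, the respiratory chain at -0.68 and -0.66, and large-subunit ribosomal proteins at 0.74 and 0.76.

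The genes that differed most between the H2O2 arrays were GAC1, RGI1, EGO4, GSY1 and HXK1. GAC1, which directs a phosphatase to glycogen synthase, read 6051 and 5611 units without H2O2 and 1454 and 81.6 units with it. GSY1, a glycogen synthase, read 61634 and 56129 units without and 17273 and 1599.9 units with H2O2, and HXK1, a hexokinase that is repressed by glucose, 180203 and 174901 units without and 38126 and 3646 units with H2O2. RGI1, a paralogue of RGI2, read 205481 and 192949 units without and 58685 and 3322 units with H2O2 and EGO4 read 42849 and 35610.3 units without and 7035 and 528 units with H2O2. In all 5 the groups did not overlap and both H2O2 arrays were at least 2-fold below the others, as in 6.53% of all genes. Replicate 2 lay far below replicate 1, and adjusted p was 0.0624 to 0.102 on the 75th percentile scale. On the spike-in scale all 5 fell, with adjusted p from 0.0146 to 0.0288.

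**Figure D5:**
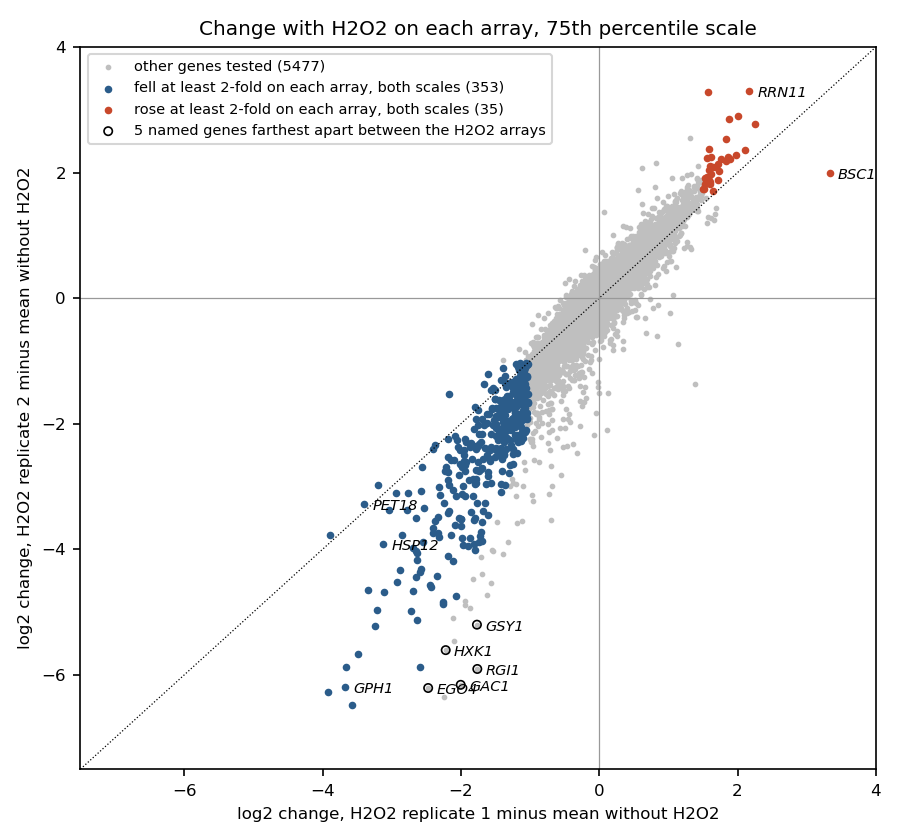
Log2 change from the mean without H2O2 on H2O2 replicate 1 (x axis) and replicate 2 (y axis), 75th percentile scale, for 5865 genes. Blue points are the 353 strong falls, red points the 35 strong rises, black circles the 5 genes farthest apart between the arrays, and the dotted line marks equal change. Most strong falls lie below the dotted line, where replicate 2 changed more, PET18 lies close to it, and BSC1 is the strong rise to its right.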

How the data were processed

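Gene expression was read on 1-colour arrays. Per the file headers, the authors' scanner files hold spot intensity values from Feature Extraction 10.7.1.1, with a background-subtracted processed signal. The authors' deposited tables hold normalized log2 values, quantile-scaled over all 8 arrays and centred per probe, which served as an alternative chosen after seeing the data. Their other 12 columns of per-sample values were not used. The probes come from a grid of build sacCer2, gene positions from the tables' descriptions (release R64-1-1) and symbols from RefSeq (5720 of 6225 genes matched).

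The sample titles gave each array's group and replicate number. Log2 processed signals were averaged over the 2 spots per probe, without control spots (536 per array) and outlier-flagged spots, and no spot was saturated. Each array's 75th percentile was subtracted, or the mean of 7 of 10 E1A spike-in probes. Of 6225 genes, 5865 had a probe well above background on all 4 arrays, and of several probes (29 genes) the brightest was kept. The 4 arrays were fitted alone with limma 3.58.1 in R 4.3.3 (lmFit and eBayes, 2 residual degrees of freedom), called at an adjusted p under 0.05, after the fit had been tested on simulated data. Feature counts per list have no test.

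Genes named are SUA7, the 10 largest strong rises and falls with a standard name, up to 4 members of each list with the largest called change and up to 2 called members against it, a panel of peroxide genes, the 5 genes farthest apart between the H2O2 arrays and those with the brightest probes. Others are said to be chosen after their values were seen. The members, the 58 lists (1461 genes tested) and the tests were chosen with earlier results of these data known. Alternatives were other scalings, filters, background correction, spread estimates, thresholds, all 8 arrays in 1 fit, the replicate number as a block, and arrays averaged or left out in turn. Promoter motifs were planned and are not analysed here.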

Additional observations from a re-analysis of the deposited data

How the results depend on the processing

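Counts over all genes depended on how the spread was estimated. With all 8 arrays in 1 fit, 738 genes rose and 832 fell on the 75th percentile scale (735 and 771 of them also called in the fit of 4 arrays), and 25 rose and 940 fell on the spike-in scale. With the arrays without H2O2 averaged, limma called 0 rises and 0 falls on either scale, and the report gives the counts at an unadjusted p under 0.05. Without one array in turn, rises on the 75th percentile scale ran from 0 to 2469 and falls from 0 to 2335, and on the spike-in scale rises ran from 0 to 541 and falls from 0 to 3965. The 0 came each time from leaving out an array without H2O2, and the higher counts from leaving out an array with it. At an adjusted p under 0.01, 923 genes rose and 487 fell (187 and 2085 on the spike-ins), and with a fitted change of at least 2-fold added, 309 rose and 524 fell (58 and 1332). The counts of genes at least 2-fold apart on each array, which use no p, ran without one array in turn from 216 to 356 higher and 388 to 738 lower on the 75th percentile scale, and from 38 to 75 higher and 874 to 1485 lower on the spike-in scale, the highest in each case with replicate 1 of the H2O2 arrays left out. In the authors' normalized values, chosen as an alternative after seeing the data, these counts were 112 and 226, and 5 called genes changed direction. The causes of these shifts were not tested, apart from the fewer arrays by construction.

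The labels do not say that a replicate number marks a shared culture, batch or day. Deviations of same-numbered arrays correlated at 0.296, and 2 pairs are too few to settle a pairing. With the replicate number as a block, 1666 genes rose and 1476 fell, and 492 rose and 3704 fell on the spike-in scale. Directions turned for some values near 0. Leaving out one array in turn, SUA7 ran from -0.25 to 0.27, GPX2 from -0.0132 to 0.0256, and the medians of the pentose phosphate pathway from -0.0546 to 0.0273, of respiratory and hypoxic regulators from -0.23 to 0.0491 and of fatty acid and phospholipid synthesis from -0.15 to 0.0601. SUA7 became -0.0147 under quantile scaling, -0.0124 with normexp background and -0.00953 in the authors' values, GPX2 -0.0192 with normexp, and the pentose phosphate median 0.0219 under median scaling. Under quantile scaling and in the authors' values, in that order, SOD1 became -0.27 and -0.81, TSA1 -0.25 and -0.66, FBA1 -0.0142 and -0.16, OLI1 -0.0767 and -0.33, CDC19 -0.0765 and -0.27, the glycolysis median -0.16 and -0.38 and the pheromone pathway median 0.0248 and 0.00807. The causes were not tested. Other values for single genes kept their direction in the alternatives run: 4782 also kept their side of the threshold, 1049 lost the call and 32 gained it. Dim signal limits the deepest falls, and the 2 arrays a group limit all p-values.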

Other observations

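Genes near the ends of chromosomes were examined apart. Of 343 tested genes within 30000 bases of the first or last annotated gene of a chromosome, 149 fell and 54 rose on the 75th percentile scale, with a median of -0.30, and 50 were at least 2-fold lower on each H2O2 array. Of the 5219 other placed genes 1370 fell and 1695 rose, with a median of 0.03, and 320 were at least 2-fold lower on each. Such genes made up 6.17% of all placed genes, 13.5% of the strong falls and 2.86% of the strong rises. Many gene families named in the report, such as the PAU genes, several HXT genes and MAN2 and DSF1, lie there, and how much they add to the difference was not tested.

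Detection also differed between the groups. A total of 126 probes were well above background on both arrays with H2O2 and not on both without it, and 24 the other way round. The dimmest signal well above background was lower with H2O2, at 22.7 and 30.3 raw units, than without it, at 60.4 and 56.6 raw units. A probe counted here where both of its spots were well above background. Of the probes so detected on both H2O2 arrays, 56 had no spot well above background on either array without H2O2, and 0 probes met the same rule the other way round. Of these 56, 34 had a level with H2O2 above the bound that the arrays without it allow on the 75th percentile scale, 9 on the spike-in scale, and 4 were at least 2-fold higher on the 75th percentile scale. YHR214C-E read 17.0 and 20.7 raw units without and 73.1 and 195 with H2O2, a bound of 2.89-fold on the 75th percentile scale and 1.99-fold on the spike-ins. YBL071C read 21.7 and 34.1 against 77.4 and 150.3 raw units, with bounds of 2.61-fold and 1.79-fold in that order. None of the 9 with a standard name reached 2-fold. PRM3, a gene of nuclear fusion, had the largest bound among them, 1.19 on the 75th percentile scale and 0.82 on the spike-ins. Its raw units overlapped, at 45.4 and 49.2 without and 37.1 and 65.0 with H2O2. The bounds put an undetected probe no lower than the dimmest signal well above background on its array. The 1st percentile of such signals was higher, at 89.0 and 86.1 raw units without H2O2, so the bounds are not firm lower limits.

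Some of the strong falls belong to none of the 58 lists, and a few are given here, chosen after their values were seen. YMR206W, an uncharacterized open reading frame, had the deepest called fall of all, from 3158 and 2711 units without to 194 and 38.0 units with H2O2 (-5.09 ± 0.87, adjusted p = 0.0159). The protein kinase gene MRK1 read 5443 and 5164 units without and 801 and 168 units with H2O2 (-3.85 ± 0.83, adjusted p = 0.0258). ZNF1, a zinc cluster transcription factor of respiratory metabolism, read 686 and 624 units without and 101 and 25.9 units with H2O2 (-3.68 ± 0.72, adjusted p = 0.0211). The water channel genes AQY1 and AQY3 fell, with log2 changes of -2.76 ± 0.55 and -2.75 ± 0.38. In all 5 genes the groups did not overlap, which the rule for strong falls requires.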
